A study of Mus musculus with 5 samples.

Results

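Genes of adipocyte lipid handling and adipokine signalling were followed in marrow stromal cells of perichondrial and of cartilage origin. The set held 10 of the 30046 features in the counts, chosen by name and matched from Ensembl identifiers to mouse symbols: *Adipoq*, *Lpl*, *Lepr* and *Apoe*, which are active in preadipocyte-like stromal cells, *Plin1*, *Plin2* and *Plin4*, which coat lipid droplets, and *Fabp4*, *Cd36* and *Cfd*, which serve fatty acid uptake or are secreted by adipocytes. The data are bulk RNA-seq counts from femurs of mice at postnatal day 21, from which tdTomato+ cells with high Cxcl12-GFP were sorted. There were 3 libraries from Cxcl12(GFP/+); Dlx5(CreER/+); R26R(tdTomato/+) mice, called Dlx5CE-E12.5 cells here, and 2 libraries, numbered 2 and 3, from Cxcl12(GFP/+); Fgfr3-iCreER; R26R(tdTomato/+) mice, called Fgfr3CE-E12.5 cells. Both groups had received tamoxifen once at E12.5, so tdTomato marks descendants of cells in which the driver was active then, perichondrial cells for *Dlx5* and fetal chondrocytes for *Fgfr3*. All mice of both groups carried the GFP allele at *Cxcl12* and the tdTomato reporter, cells of littermates were pooled, and no group without a creER driver was included. The comparison asks how far the adipocyte programme of marrow stromal cells differs with their fetal origin.

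White adipocytes store triglyceride in droplets. Lipoprotein lipase releases fatty acids from circulating lipoproteins, CD36 and fatty acid binding proteins carry them into and through the cell, and perilipins coat the droplet and control access of lipases to it. CXCL12-abundant reticular cells of the marrow are known to express adiponectin, the leptin receptor and lipoprotein lipase at high levels while holding little stored fat, so genes of the early adipocyte programme and genes of the filled droplet need not move together.

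Total counts were 22035650 to 32563758 in Dlx5CE-E12.5 libraries and 56355203 and 58166285 in Fgfr3CE-E12.5 libraries, and 3 counts, taken as the smallest detectable amount, corresponded to 0.0516 to 0.136 CPM, the count scaled to a fixed library total. The Dlx5CE-E12.5 libraries were described as paired-end reads of a NovaSeq and the Fgfr3CE-E12.5 libraries as shorter single-end reads of a HiSeq, although the labels name the HiSeq for all, so sequencing mode and lineage cannot be told apart. Marker lists also separated the groups. The summed CPM of 10 stromal markers was 32977 to 34696 in Dlx5CE-E12.5 libraries and 12909 and 9005 in Fgfr3CE-E12.5 libraries 2 and 3. For 10 neutrophil markers it was 2659 to 3315 against 7409 and 18261, and for 10 pan-leukocyte markers 377 to 474 against 1236 and 2550. Of the other lists, 10 macrophage markers summed to 90.6 to 132 against 198 and 261, 8 megakaryocyte markers to 6.8 to 8.16 against 73.3 and 17.3, and 8 B lineage markers to 105 to 273 against 275 and 488. The sums of 10 endothelial markers (29.7 to 56.2 against 42.5 and 62) and of 9 erythroid markers (18768 to 38238 against 14645 and 21798) overlapped between the groups.

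All levels below are CPM over protein-coding genes and reporter sequences that passed the filter, scaled by the trimmed mean of M-values (TMM), unless given per kilobase. Fold changes are log2 values of Fgfr3CE-E12.5 over Dlx5CE-E12.5, so a negative value is higher in Dlx5CE-E12.5 cells. A gene was called if its log2 fold change exceeded 1 in size and its p from the quasi-likelihood test of edgeR, adjusted by Benjamini-Hochberg over all 10088 genes that reached a CPM of 10 in 2 libraries, was below 0.05. Of the 10 genes, 7 entered that test. *Plin1* and *Plin4* entered a second fit of 13225 genes that reached a CPM of 1 in 2 libraries, and *Cfd*, which reached that level in 1 library, was not tested.

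Promoter windows of *Adipoq* and *Apoe*, called higher in Dlx5CE-E12.5 cells, are shown with that of *Plin1*, called higher in Fgfr3CE-E12.5 cells, and those of *Lepr* and *Plin2*, which were not called. Each window runs from 250 bases before to 50 bases after a RefSeq start on GRCm38.p6 and is written in the direction of the gene. Such windows were given for 8 of the 10 genes, with none for *Lpl* and *Fabp4*. Capitals mark matches on either strand to the nuclear receptor half-site AGGTCA, the C/EBP core TTGCNNAA, the EBF core CCCNNGGG or the TATA box TATAAA, and the matches to these motifs did not overlap each other in the windows shown.
Adipoq, chr16:23146286-23146585, plus strand: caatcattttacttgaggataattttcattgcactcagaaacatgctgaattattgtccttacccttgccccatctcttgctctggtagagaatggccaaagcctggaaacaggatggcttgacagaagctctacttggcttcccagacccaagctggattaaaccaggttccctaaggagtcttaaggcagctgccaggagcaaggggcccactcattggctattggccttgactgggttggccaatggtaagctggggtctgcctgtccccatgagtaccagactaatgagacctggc
Lepr, chr4:101717157-101717456, plus strand: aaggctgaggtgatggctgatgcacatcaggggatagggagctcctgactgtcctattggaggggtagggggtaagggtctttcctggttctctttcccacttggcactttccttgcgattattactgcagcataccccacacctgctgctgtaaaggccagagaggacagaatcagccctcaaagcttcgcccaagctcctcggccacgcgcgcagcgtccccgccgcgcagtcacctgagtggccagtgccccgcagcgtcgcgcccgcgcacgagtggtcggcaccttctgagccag
Apoe, chr7:19699139-19699438, minus strand: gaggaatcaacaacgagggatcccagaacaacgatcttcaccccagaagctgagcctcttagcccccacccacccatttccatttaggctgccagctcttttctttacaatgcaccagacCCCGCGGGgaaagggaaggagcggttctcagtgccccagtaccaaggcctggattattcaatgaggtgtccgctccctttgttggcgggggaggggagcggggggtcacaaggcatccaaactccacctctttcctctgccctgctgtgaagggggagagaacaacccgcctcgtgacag
Plin1, chr7:79732727-79733026, minus strand: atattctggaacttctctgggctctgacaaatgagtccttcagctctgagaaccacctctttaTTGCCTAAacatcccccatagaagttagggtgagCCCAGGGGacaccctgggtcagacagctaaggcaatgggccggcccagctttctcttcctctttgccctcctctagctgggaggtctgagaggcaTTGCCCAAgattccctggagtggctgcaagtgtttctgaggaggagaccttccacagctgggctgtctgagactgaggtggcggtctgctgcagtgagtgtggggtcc
Plin2, chr4:86670010-86670309, minus strand: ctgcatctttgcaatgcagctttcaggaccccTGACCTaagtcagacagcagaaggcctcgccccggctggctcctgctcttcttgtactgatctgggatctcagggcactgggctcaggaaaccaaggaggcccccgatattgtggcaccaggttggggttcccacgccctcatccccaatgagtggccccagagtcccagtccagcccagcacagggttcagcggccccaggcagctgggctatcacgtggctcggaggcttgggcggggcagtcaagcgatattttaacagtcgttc
The *Plin1* window held C/EBP core matches starting at positions -187 and -58 from the start, and an EBF core match at -153. The *Apoe* window held an EBF core match at -130, and the *Plin2* window held a half-site match on the reverse strand at -218. The *Adipoq* and *Lepr* windows held none of these letters. Among all 32851 RefSeq windows of the same length, 16.3% held the half-site, 10.8% the C/EBP core, 13.7% the EBF core and 13.6% the TATA box. A pair of half-sites 1 base apart is the form bound by PPARG with RXR. With each half-site loosened to AGGNCA, such a pair was in 0.381% of windows and in none of the 8. Of the windows not printed, those of *Plin4* (EBF core at -236) and *Cd36* (half-site on the reverse strand at -228) held 1 match each and that of *Cfd* none. The *Cd36* window, at 17835847 to 17836146, belongs to a start inside the gene, away from its annotated 5' end at 17888801. These are matches of letters and not measured binding.

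All 4 genes of the early adipocyte programme had lower levels in Fgfr3CE-E12.5 cells, and 3 of them were called. *Adipoq*, *Lpl* and *Apoe* were called higher in Dlx5CE-E12.5 cells, at 3.38-, 2.74- and 5.44-fold, and *Lepr* passed the adjusted p but not the fold change threshold, at 1.92-fold. These 3 calls of 7 genes tested stand against 13.1% of all genes tested that were called in that direction, and *Cd36* was the 1 gene of the 7 called higher in Fgfr3CE-E12.5 cells, against 16.4%. For *Adipoq*, *Lpl*, *Lepr* and *Apoe* every Dlx5CE-E12.5 library lay above both Fgfr3CE-E12.5 libraries, a pattern found in 34.1% of all genes tested. *Cd36* alone of the 7 had the opposite separation, found in 34.8% of genes. The median log2 fold change of the 4 early genes was -1.61, against 0.01 for all genes tested. The genes were chosen with earlier results of these data known, so these shares and medians describe them and are no separate support. In bulk samples, fewer cells of a type and less RNA of the gene per cell cannot be told apart.

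**Figure D1:**
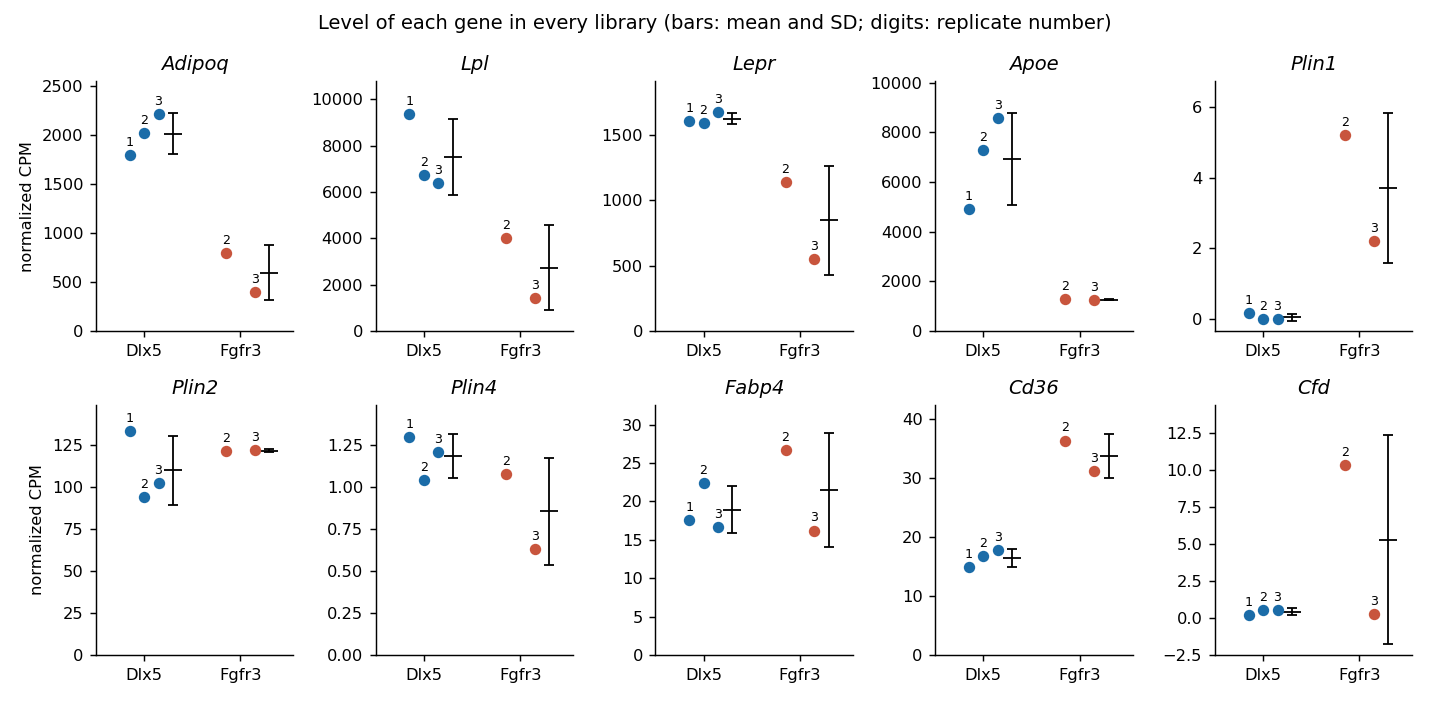
Normalized CPM of each of the 10 genes in every library, on linear axes that differ between panels; points are libraries with their replicate numbers (Dlx5CE-E12.5 in blue, Fgfr3CE-E12.5 in red) and the bar beside them is the mean and SD of 3 or 2 libraries, which for *Plin1* and *Cfd* reaches below 0. *Adipoq*, *Lpl*, *Lepr* and *Apoe* separate downward in Fgfr3CE-E12.5 cells, *Cd36* and *Plin1* separate upward, and *Cfd* is raised in Fgfr3CE-E12.5 library 2 alone.

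*Adipoq* (ENSMUSG00000022878; GRCm38 chromosome 16, 23146536 to 23158028, plus strand) encodes adiponectin, a hormone that adipocytes secrete. Its CPM was 1799, 2023 and 2218 in Dlx5CE-E12.5 libraries 1, 2 and 3, and 794 and 397 in Fgfr3CE-E12.5 libraries 2 and 3. The groups did not overlap, and the Fgfr3CE-E12.5 libraries differed from each other by 2-fold where the Dlx5CE-E12.5 libraries spanned 1.23-fold. It changed by -1.76 on the log2 scale (SE 0.31, adjusted p = 0.00373, edgeR), and it was -1.28 without Fgfr3CE-E12.5 library 3 and -2.27 without library 2.

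*Lpl* (ENSMUSG00000015568; chromosome 8, 68880491 to 68907448, plus strand) encodes lipoprotein lipase, which frees fatty acids from circulating triglyceride. Its CPM was 9389, 6739 and 6386 in Dlx5CE-E12.5 libraries and 4028 and 1452 in Fgfr3CE-E12.5 libraries. The spread was wide on both sides, 1.47-fold among the Dlx5CE-E12.5 libraries and 2.77-fold between the Fgfr3CE-E12.5 libraries, without overlap. This fall of -1.45 on the log2 scale (SE 0.44, adjusted p = 0.0305, edgeR) lost its call without Dlx5CE-E12.5 library 1 (-1.26, adjusted p = 0.0744), without Dlx5CE-E12.5 library 2 (-1.53, adjusted p = 0.0587) and without Fgfr3CE-E12.5 library 3 (-0.84, adjusted p = 0.0703), and was -2.30 without Fgfr3CE-E12.5 library 2.

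*Lepr* (ENSMUSG00000057722; chromosome 4, 101717404 to 101815352, plus strand) encodes the leptin receptor, a common marker of perivascular marrow stroma. Its CPM was 1608, 1595 and 1677 in Dlx5CE-E12.5 libraries, a span of 1.05-fold, and 1144 and 550 in Fgfr3CE-E12.5 libraries. Both Fgfr3CE-E12.5 libraries lay below the others, and library 2 lay closer to Dlx5CE-E12.5 cells than to library 3 on this scale. On the log2 scale it changed by -0.94 (SE 0.30, adjusted p = 0.0383, edgeR). It was called without Fgfr3CE-E12.5 library 2, at -1.49 (adjusted p = 0.0015), and was -0.45 (adjusted p = 0.0701) without library 3. Its adjusted p rose above 0.05 as well when Dlx5CE-E12.5 library 1, 2 or 3 was left out, at 0.0733, 0.0839 and 0.0797, and with library size alone as the scaling, at 0.0692.

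*Apoe* (ENSMUSG00000002985; chromosome 7, 19696109 to 19699188, minus strand) encodes apolipoprotein E, a lipid carrier and ligand of the LDL receptor family. Its CPM was 4927, 7277 and 8572 in Dlx5CE-E12.5 libraries and 1295 and 1251 in Fgfr3CE-E12.5 libraries. Here the spread was among the Dlx5CE-E12.5 libraries, at 1.74-fold, and the Fgfr3CE-E12.5 libraries differed by 1.04-fold, whereas library 2 was above library 3 by 2-fold for *Adipoq*, 2.77-fold for *Lpl* and 2.08-fold for *Lepr*. The log2 fold change was -2.44 (SE 0.28, adjusted p = 0.000637, edgeR), the largest fall of the tested members.

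Together these 4 genes took 1.59%, 1.61% and 1.66% of all counts in Dlx5CE-E12.5 libraries, and 0.753% and 0.378% in Fgfr3CE-E12.5 libraries 2 and 3. Of the 10 stromal markers, which include none of the 4, 7 were also called higher in Dlx5CE-E12.5 cells and 1, *Foxc1*, higher in Fgfr3CE-E12.5 cells, with a median log2 fold change of -1.74, and 8 of the 10 had a lower CPM in Fgfr3CE-E12.5 library 3 than in library 2. All 10 neutrophil and all 10 pan-leukocyte markers were called higher in Fgfr3CE-E12.5 cells and had a higher CPM in library 3 than in library 2. Over all genes tested, 13.1% were called higher in Dlx5CE-E12.5 cells and 16.4% higher in Fgfr3CE-E12.5 cells. The share of all genes that differed in either direction between libraries 2 and 3 was not counted. The part of the sorted cells' make-up in the fall of the early genes was not tested.

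The lipid-droplet genes did not follow the early genes. *Plin2* (ENSMUSG00000028494; chromosome 4, 86648386 to 86670060, minus strand) encodes the perilipin found on droplets of most cell types. Its CPM was 133, 93.9 and 102 in Dlx5CE-E12.5 libraries and 121 and 122 in Fgfr3CE-E12.5 libraries, which fell within the range of the former. With a log2 change of 0.14 (SE 0.17, adjusted p = 0.532, edgeR) it was not called, and the sign turned to -0.16 when a trend on transcript length was removed.

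*Plin1* (ENSMUSG00000030546; chromosome 7, 79720218 to 79732903, minus strand) encodes the perilipin of adipocyte droplets, which gates hormone-driven lipolysis. It had 5, 0 and 0 counts in Dlx5CE-E12.5 libraries and 304 and 134 counts in Fgfr3CE-E12.5 libraries, a CPM of 0.172, 0, 0, 5.2 and 2.22. Thus it was at or near the detection limit in Dlx5CE-E12.5 cells and low but detected in both Fgfr3CE-E12.5 libraries. Pooled over libraries, 438 counts against 5 gave a ratio of 54 (95% Clopper-Pearson interval of the split of counts 23 to 167, which covers counting error only). In the fit with the lower filter the log2 fold change was 5.74 (SE 1.07, adjusted p = 0.00527, edgeR). That size depends on how the fit treats zeros and was 10.23 without Dlx5CE-E12.5 library 1. *Plin1* entered this fit only through the Fgfr3CE-E12.5 libraries, the group where it was high, so its p and call are no separate support. In this fit 16.6% of genes were called higher in Fgfr3CE-E12.5 cells and 12.9% higher in Dlx5CE-E12.5 cells.

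*Plin4* (ENSMUSG00000002831; chromosome 17, 56100591 to 56109803, minus strand) encodes a perilipin abundant in white adipocytes. It had 38, 21 and 29 counts in Dlx5CE-E12.5 libraries and 63 and 38 in Fgfr3CE-E12.5 libraries, a CPM of 1.3, 1.04, 1.21, 1.08 and 0.631. The groups overlapped, and the log2 fold change was -0.50 (SE 0.55, adjusted p = 0.502, edgeR with the lower filter). *Hdgfl2* overlaps it on the opposite strand, and no strand setting of the counting was stated, so these few counts are uncertain in origin.

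**Figure D2:**
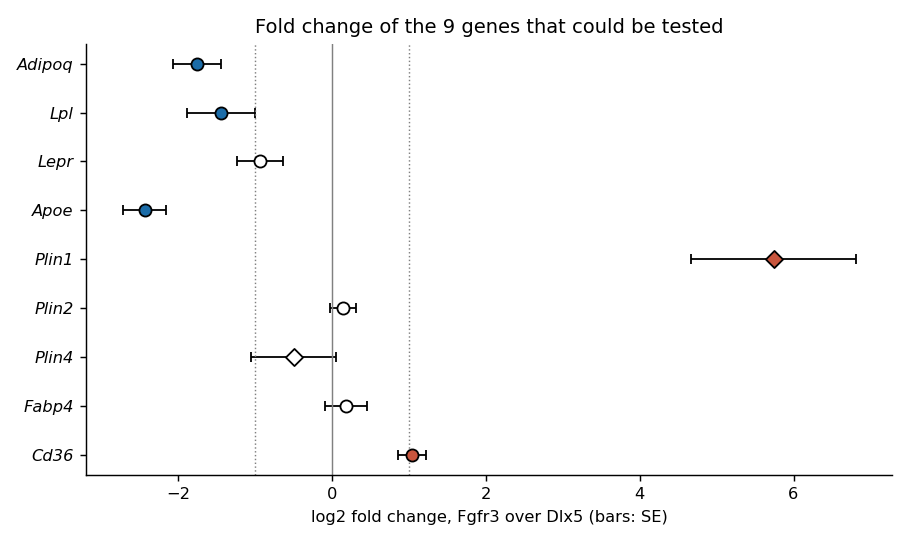
Log2 fold change (x axis, Fgfr3CE-E12.5 over Dlx5CE-E12.5) with its standard error for the 9 genes that could be tested; circles come from the fit of 10088 genes and diamonds from the fit of 13225 genes, filled blue or red where called higher in Dlx5CE-E12.5 or Fgfr3CE-E12.5 cells and white where not called, with dotted lines at the fold change threshold. The early genes lie left of 0, from -2.44 to -0.94, and *Plin1* lies far to the right with the widest error.

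The other markers of mature adipocytes went in both directions. The summed CPM of 8 such markers, *Plin1* among them, was 21.9 to 36 in Dlx5CE-E12.5 libraries and 28.4 and 25.8 in Fgfr3CE-E12.5 libraries. Of the 8, 5 had both Fgfr3CE-E12.5 libraries above every Dlx5CE-E12.5 library. Only 3 of the 8 were in the fit of 10088 genes, where 34.8% of genes had that separation and 34.1% the reverse. Of the 5, *Cidec*, *Cidea*, *Retn* and *Plin1* were at or near the detection limit in Dlx5CE-E12.5 libraries, which were also less deep. The reverse was seen for 1 of the 8. That 1 was *Adrb3*, at 13.2, 19.1 and 20.2 against 1.49 and 0.249, which made up most of the Dlx5CE-E12.5 sums and was called higher there, while *Gpd1* was called higher in Fgfr3CE-E12.5 cells. Both genes passed the filter only through the group where they were high, so these calls are no separate support. The call of *Gpd1* was also lost under some settings given below. *Cidec*, which drives droplet fusion in adipocytes, had a CPM of 0 in all 3 Dlx5CE-E12.5 libraries and of 1.13 and 0.382 in Fgfr3CE-E12.5 libraries. *Retn*, the adipokine resistin, had no counts in Dlx5CE-E12.5 libraries either and a CPM of 0.12 and 0.133 in Fgfr3CE-E12.5 libraries. In Dlx5CE-E12.5 library 2 the smallest detectable amount was 0.136 CPM, so a zero there cannot be told from such levels. *Cidea* reached at most 0.513 in any library. *Lep* and *Pck1* were not analysed here.

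Of the genes of fatty acid uptake, *Cd36* was higher in Fgfr3CE-E12.5 cells and *Fabp4* was not called. *Cd36* (ENSMUSG00000002944; chromosome 5, 17781690 to 17888801, minus strand) encodes a fatty acid translocase of adipocytes that macrophages, platelets and microvascular endothelium also carry. Its CPM was 14.8, 16.7 and 17.7 in Dlx5CE-E12.5 libraries and 36.3 and 31.1 in Fgfr3CE-E12.5 libraries. The groups were apart and each was narrow, 1.19-fold within Dlx5CE-E12.5 cells and 1.17-fold within Fgfr3CE-E12.5 cells. A rise of 1.04 on the log2 scale (SE 0.18, adjusted p = 0.00306, edgeR) lay just past the threshold, and fell under it without Dlx5CE-E12.5 library 1, at 0.97, and with a trend on transcript length removed, at 0.74. Of the macrophage markers, 5 of 7 tested were called higher in Fgfr3CE-E12.5 cells and none lower (16.4% and 13.1% of all genes tested). Over all 10 of them, *Mrc1* and *Cd5l* had every Dlx5CE-E12.5 library above both Fgfr3CE-E12.5 libraries and 7 had the reverse (34.1% and 34.8% of all genes tested). The part of macrophages in the *Cd36* counts was not tested. The summed megakaryocyte markers were also higher in Fgfr3CE-E12.5 cells, at 73.3 and 17.3, and their part was not tested either.

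*Fabp4* (ENSMUSG00000062515; chromosome 3, 10204088 to 10208576, minus strand) encodes the fatty acid binding protein of adipocytes, macrophages and capillary endothelium. Its CPM was 17.6, 22.4 and 16.7 in Dlx5CE-E12.5 libraries and 26.7 and 16.2 in Fgfr3CE-E12.5 libraries. One Fgfr3CE-E12.5 library was the highest of the 5 and the other the lowest. The log2 fold change was 0.18 (SE 0.27, adjusted p = 0.607, edgeR), with the sign turned to -0.15 without Fgfr3CE-E12.5 library 2 and to -0.15 with the transcript length trend removed.

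*Cfd* (ENSMUSG00000061780; chromosome 10, 79890853 to 79892655, plus strand) encodes adipsin, complement factor D, which adipocytes secrete. It had 5, 11 and 13 counts in Dlx5CE-E12.5 libraries, 604 counts in Fgfr3CE-E12.5 library 2 and 17 counts in library 3, a CPM of 0.172, 0.545, 0.544, 10.3 and 0.282. A single library thus stood out, 36.6-fold above the other of its group, and the group means of 0.42 ± 0.215 (SD, n = 3) and 5.31 ± 7.11 (SD, n = 2) were not compared. In the same library *Plin1*, *Cidec* and the summed megakaryocyte markers were also above their level in library 3, at 2.34-fold for *Plin1*, although 1 of the 8 megakaryocyte markers, *Gp9*, was higher in library 3. This was not particular to them, as every member but *Plin2* was higher in library 2. Among these were *Adipoq* (2-fold), *Lpl* (2.77-fold), *Lepr* (2.08-fold) and *Fabp4* (1.65-fold). Of the 8 mature adipocyte markers, *Lipe* and *Retn* were higher in library 3. Whether these levels go together was not tested.

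The order of the 10 genes was set by level per kilobase of exon, which allows genes to be compared. In Dlx5CE-E12.5 cells *Apoe* led at 3239 ± 864 CPM per kilobase (SD, n = 3) and was rank 6 of 17087 protein-coding genes, followed by *Adipoq* at 1458 ± 152 (rank 19), *Lpl* at 716 ± 157 (rank 51) and *Lepr* at 231 ± 6.26 (rank 172). *Plin2* stood at 31.3 ± 5.89 (rank 1611), *Cd36* at 4.56 ± 0.405 and *Fabp4* at 4.21 ± 0.684, and *Cfd*, *Plin4* and *Plin1* lay under 1 at 0.456, 0.205 and 0.0123. Neighbours in this order were apart in every library except *Cd36* and *Fabp4*, and *Cfd* and *Plin4*, whose libraries overlapped. In Fgfr3CE-E12.5 cells the first 6 places were held in the same order, with *Apoe* at 595 ± 14.5 (SD, n = 2; rank 46), *Adipoq* at 431 ± 203 (rank 67), *Lpl* at 262 ± 174 (rank 119), *Lepr* at 120 ± 59.6 (rank 308), *Plin2* at 34.5 ± 0.221 (rank 1482) and *Cd36* at 9.4 ± 1.02 (rank 4970). There *Adipoq* overlapped *Lpl* and *Lpl* overlapped *Lepr*, so that their order was not larger than the spread. *Cfd* (5.76), *Fabp4* (4.77), *Plin1* (0.799) and *Plin4* (0.148) followed, but *Cfd* overlapped both *Cd36* and *Fabp4* and held its place through library 2 alone, with 11.2 there and 0.306 in library 3, below *Plin1*. Thus the early genes ranked above all 6 other members in both origins.

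The early genes were then set against the droplet genes within each library. The mean log2 CPM of *Adipoq*, *Lpl*, *Lepr* and *Apoe* was 11.73, 11.79 and 11.88 in Dlx5CE-E12.5 libraries and 10.53 and 9.63 in Fgfr3CE-E12.5 libraries. That of *Plin1*, *Plin2* and *Plin4* was 1.78, 0.81 and 0.92 against 3.16 and 2.52. The difference between these means was 9.95, 10.99 and 10.96 in Dlx5CE-E12.5 libraries and 7.37 and 7.11 in Fgfr3CE-E12.5 libraries, so the groups did not overlap. It averaged 10.63 ± 0.59 (SD, n = 3) and 7.24 ± 0.18 (SD, n = 2), a gap of -3.40 between origins against a pooled SD of 0.49. *Plin1* weighed heavily in it, since the gap was -1.56 without *Plin1* and -1.88 with *Plin2* as the only droplet gene. No p is given, as the genes were chosen with results of these data known.

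**Figure D3:**
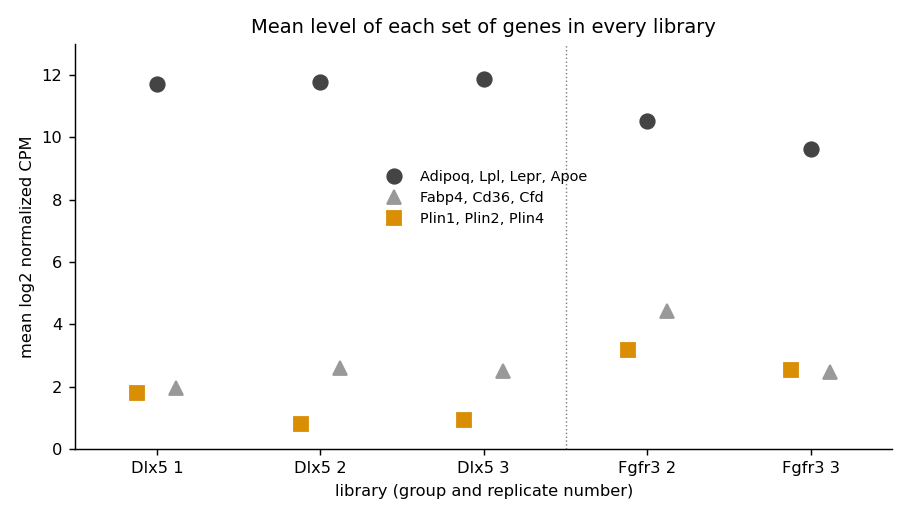
Mean log2 normalized CPM (y axis) of the 4 early genes (circles), the 3 uptake and adipsin genes (triangles) and the 3 lipid-droplet genes (squares) in each of the 5 libraries (x axis). The early genes lie at 11.73 to 11.88 in Dlx5CE-E12.5 libraries and at 10.53 and 9.63 in Fgfr3CE-E12.5 libraries. The mean of the droplet genes lies lower in Dlx5CE-E12.5 than in Fgfr3CE-E12.5 libraries through *Plin1*, as *Plin2* and *Plin4* each overlapped between the groups.

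Of the genes tested, those whose pattern over the 5 libraries was most like *Adipoq* were *Fign*, *Ahnak*, *Agt*, *Prickle2* and *Nup98*, by a root mean square difference of 0.054 to 0.071 in log2 CPM after each gene was centred on its own mean. *Agt*, the precursor of angiotensin, which adipocytes also secrete, had a CPM of 2296, 2457 and 2672 in Dlx5CE-E12.5 libraries and 951 and 529 in Fgfr3CE-E12.5 libraries. *Lpl* was at place 468 on this measure (0.338), *Lepr* at 686 and *Apoe* at 877. For *Plin2* the nearest were *Sc5d*, *Fra10ac1*, *Fbxo22*, *Faim* and *Prps1l3*, at 0.032 to 0.041, and *Adipoq* was at place 9081. With 5 libraries this measure describes resemblance and was not tested.

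Around these 10 genes, 7 lists of lipid and adipokine genes held 107 genes in the counts, of which 80 were tested, 21 were called higher in Dlx5CE-E12.5 cells and 17 higher in Fgfr3CE-E12.5 cells. Over all genes tested the shares called were 13.1% and 16.4%. The lists too were chosen with earlier results of these data known, so the shares only describe them. Some genes named below passed the filter only through the group where they were high, so their p is no separate support. These include *Fabp5*, *Gpd1* and *Metrnl* in Fgfr3CE-E12.5 libraries and *Adrb3*, *Npr1*, *Apod*, *Abcg1* and *Cdh13* in Dlx5CE-E12.5 libraries. The median log2 fold change over the lists was -0.14, against 0.01 over all genes tested. None of the 6 tested genes among other lipid-droplet proteins was called in either direction, with a median of 0.18; by adjusted p alone *Bscl2*, the seipin gene, was past 0.05 (0.0148), at -0.61. *Plin3* had a log2 fold change of 0.40 (adjusted p = 0.0907, edgeR) and *Hilpda*, an inhibitor of lipolysis, one of 0.52 (adjusted p = 0.0695, edgeR), values given after they were seen.

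**Figure D4:**
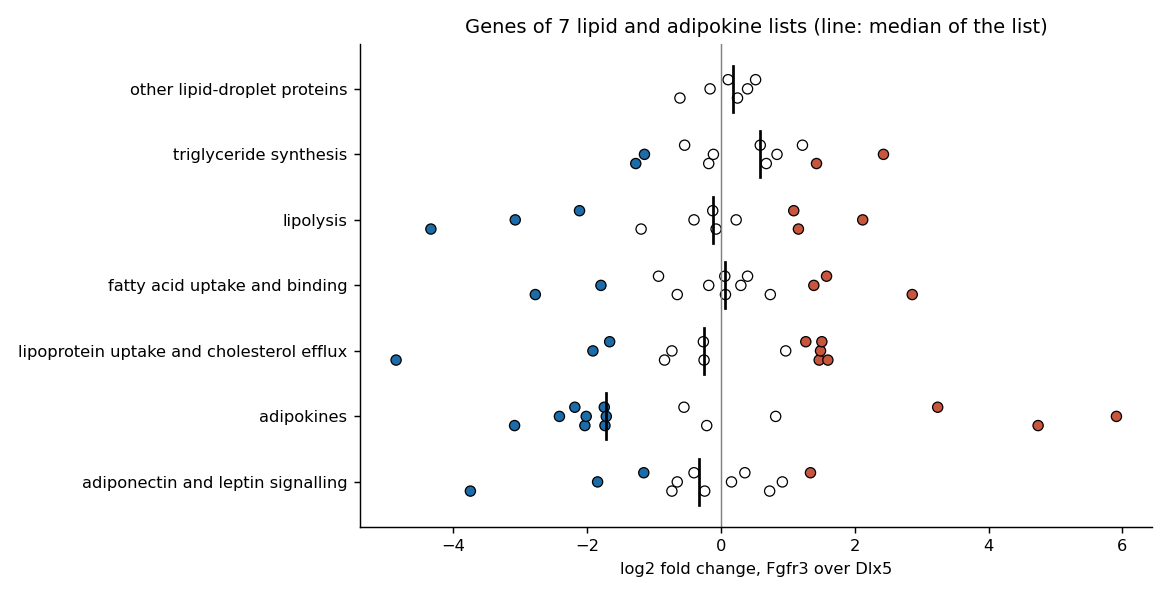
Log2 fold change (x axis, Fgfr3CE-E12.5 over Dlx5CE-E12.5) of every tested gene of the 7 lists (y axis); blue and red points were called higher in Dlx5CE-E12.5 and Fgfr3CE-E12.5 cells, white points were not called, the vertical line is the list's median, and points are offset vertically only to separate them. The adipokine list has the lowest median, -1.72, and also the 2 largest rises.

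In triglyceride synthesis, 2 of 11 tested genes were higher in Dlx5CE-E12.5 cells and 2 higher in Fgfr3CE-E12.5 cells (13.1% and 16.4% of all genes tested), shares near those of all genes. *Agpat2*, an acyltransferase of the phosphatidic acid step needed for white fat, rose from 11.3 ± 1.3 (SD, n = 3) to 61 ± 29.3 CPM (SD, n = 2), with 40.3 and 81.7 in the Fgfr3CE-E12.5 libraries (log2 fold change 2.43, adjusted p = 0.00085, edgeR). *Gpd1*, which supplies glycerol 3-phosphate, rose by 1.43 (adjusted p = 0.0234, edgeR) from a CPM of 3.98 to 10.6, a call lost without Dlx5CE-E12.5 library 1 (adjusted p = 0.0541) or library 3 (adjusted p = 0.0551), and with the GC trend (adjusted p = 0.06) or length trend (adjusted p = 0.0529) removed. *Agpat1*, of the same step as *Agpat2*, and the phosphatidate phosphatase gene *Lpin1* fell by 1.27 and 1.14 on the log2 scale, and *Lpin1* was under the threshold without Fgfr3CE-E12.5 library 3, at -0.85, and with the length trend removed, at -0.94.

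In lipolysis, 3 of 11 tested genes were higher in Dlx5CE-E12.5 cells and 3 higher in Fgfr3CE-E12.5 cells (13.1% and 16.4% of all genes tested). *Adrb3*, the beta-3 adrenergic receptor of adipocytes, had a CPM of 13.2, 19.1 and 20.2 against 1.49 and 0.249 (log2 fold change -4.33, adjusted p = 0.00275, edgeR), and *Npr1*, the natriuretic peptide receptor, changed by -3.07. Of the lipases, 2 were higher in Fgfr3CE-E12.5 cells, *Pnpla2* for triglyceride by 1.16 and *Mgll* for monoglyceride by 1.09, with *Prkar2b*, a regulatory subunit of protein kinase A, by 2.12. The call of *Pnpla2* was lost without Fgfr3CE-E12.5 library 3, at 0.96, and with the trend on GC content (0.80) or transcript length (0.89) removed. That of *Mgll* was lost without Dlx5CE-E12.5 library 1, at 0.97, and with the same trends removed, at 0.84 and 0.82. *Lipe*, hormone-sensitive lipase, was at 8.92 ± 3.67 (SD, n = 3) and 10.5 ± 2.17 CPM (SD, n = 2) and was not called.

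In fatty acid uptake and binding, 2 of 13 tested genes were higher in Dlx5CE-E12.5 cells and 3 higher in Fgfr3CE-E12.5 cells (13.1% and 16.4% of all genes tested), again near those shares. *Angptl4*, an inhibitor of lipoprotein lipase, was itself abundant and fell from 975 ± 206 (SD, n = 3) to 281 ± 117 CPM (SD, n = 2), a log2 fold change of -1.79 beside the -1.45 of *Lpl*. *Cavin1*, needed for caveolae, fell by 2.77 on the log2 scale. *Fabp5*, the paralogue of *Fabp4*, had a CPM of 4.94, 4.21 and 3.47 in Dlx5CE-E12.5 libraries and 32.1 and 29.2 in Fgfr3CE-E12.5 libraries (log2 fold change 2.86, adjusted p = 0.000153, edgeR). *Slc27a4*, a fatty acid transporter, and *Acsl3*, an acyl-CoA synthetase, rose by 1.58 and 1.39.

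In lipoprotein uptake and cholesterol efflux, 3 of 13 tested genes were higher in Dlx5CE-E12.5 cells and 5 higher in Fgfr3CE-E12.5 cells (13.1% and 16.4% of all genes tested). *Apod*, apolipoprotein D, a lipid carrier, fell most, from a CPM of 51.7, 76 and 91 to 2.7 and 2.36 (log2 fold change -4.85, adjusted p = 6.9e-05, edgeR), and *Npc2* and *Abcg1*, which move cholesterol out of lysosomes and out of the cell, changed by -1.91 and -1.66. Of the genes that rose, *Vldlr*, a receptor for APOE-bearing lipoproteins, was at 1.49 and *Lrp10* at 1.51; *Apol6* rose by 1.60. The ligand *Apoe* and its receptor *Vldlr* thus changed in opposite directions.

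Of 14 tested adipokines, 8 were higher in Dlx5CE-E12.5 cells and 3 higher in Fgfr3CE-E12.5 cells (13.1% and 16.4% of all genes tested), and the median was -1.72. *Rarres2*, the gene of chemerin, had a CPM of 278, 310 and 357 against 42.3 and 32.1 (log2 fold change -3.08, adjusted p = 7.6e-05, edgeR). *Il6* and *Ccl2*, cytokines that many stromal cells secrete, changed by -2.41 and -2.18, and the call of *Ccl2* was lost without Fgfr3CE-E12.5 library 3 (-1.41, adjusted p = 0.131; -3.54 without library 2), without Dlx5CE-E12.5 library 2 (adjusted p = 0.0704), without Dlx5CE-E12.5 library 3 (adjusted p = 0.0797) and with the length trend removed (adjusted p = 0.0573). The 3 that rose were *Vegfa* (5.91), *Metrnl* (4.74) and *Lcn2* (3.24). *Vegfa*, the vascular growth factor, went from a CPM of 4.63, 8.92 and 13.1 to 613 and 455, and *Metrnl*, meteorin-like, from 4.91, 6.99 and 6.57 to 160 and 170. *Lcn2*, lipocalin 2, is also abundant in neutrophils. Its CPM was 226 and 564 in Fgfr3CE-E12.5 libraries 2 and 3, where the summed neutrophil markers were 7409 and 18261. Between the groups its log2 fold change of 3.24 was larger than the median of 1.78 of the neutrophil markers. The part of neutrophils in the *Lcn2* counts was not tested.

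Among 12 tested genes of adiponectin and leptin signalling, 3 were higher in Dlx5CE-E12.5 cells and 1 higher in Fgfr3CE-E12.5 cells (13.1% and 16.4% of all genes tested). The adiponectin receptors moved apart, with *Adipor1* at 132 ± 18.3 (SD, n = 3) and 335 ± 85.4 CPM (SD, n = 2; log2 fold change 1.34, adjusted p = 0.00178, edgeR) and *Adipor2* at 78.3 ± 4.78 and 35.3 ± 5.24 CPM (log2 fold change -1.15, adjusted p = 0.00129, edgeR). The call of *Adipor2* was lost without Fgfr3CE-E12.5 library 2, at -0.93. *Cdh13*, the T-cadherin that binds adiponectin, changed by -3.74 and the insulin receptor substrate *Irs1* by -1.84.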

How the data were processed

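Bulk RNA-seq counts of 5 libraries (3 Dlx5CE-E12.5, 2 Fgfr3CE-E12.5), described as biologically independent samples, were analysed; groups and replicate numbers came from the labels. The authors amplified cDNA with a low-input SMART-Seq kit, prepared Nextera XT libraries, aligned reads to mm10 (TopHat2 2.0.13 and Bowtie2 2.2.1 per the submitters' processing notes, which also list HTSeq without a strand setting) and deposited raw counts per Ensembl gene with reporter sequences. The deposited depth-normalized and rlog tables were not used.

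Symbols, exon lengths and positions came from GENCODE M21 on GRCm38, in which 76 of 30041 identifiers were not found. Counts of protein-coding genes and reporters that reached a CPM of 10 in 2 libraries were fitted with edgeR 4.0.16 (R 4.3.3), TMM and the quasi-likelihood test, with no covariate; CPM used the summed counts of the genes in the fit as library size. Log2 CPM used a prior count of 2. Genes failing this filter were fitted at a CPM of 1. The standard error was the log2 fold change divided by the root of its F statistic. On simulated counts, 97 of 100 genes changed by 1.5 and 100 of 100 changed by 3 on the log2 scale were called, and 3 of the unchanged genes among 9899 in the test. That simulation gave every gene the same dispersion of 0.04 and changed only genes with a mean CPM well above the filter. Its shares therefore do not cover genes of wider spread or lower level.

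The members and gene lists were chosen with earlier results of these data known. All 10 members were named with every library's value, with at most 3 called genes in each direction per list by fold change, and the 5 genes most like *Adipoq* and *Plin2*; other names were chosen after their values were seen. A gene that this rule names is not reported here. No 2 libraries differed by less than sampling noise, so none was taken as a resequencing of another and each counted once. That comparison cannot tell whether libraries came from separate animals, for which the paper's description was relied on. Depth was 22035650 to 58166285 counts, reads carried no molecular identifiers, and intervals and detection limits cover counting error only. Of a member's 50-base windows, at most 2.57% occurred in another gene. Alternatives were other scalings (DESeq2's size factors, library size alone), edgeR's exact test, DESeq2 1.42.0, other filters, all features, no fold change threshold, GC and length trends removed, a block for the replicate number, omission of each library, and other compositions of the 2 gene sets.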

Additional observations from a re-analysis of the deposited data

How the results depend on the processing

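Of the members called higher in Dlx5CE-E12.5 cells, 3 in the fit reported, the number was 2 to 4 when each library was left out and within 1.5 times of 3 under every alternative run. For members called higher in Fgfr3CE-E12.5 cells, 1 in the fit reported, it was 2 with a CPM filter of 1 and 2 with no filter, since *Plin1* then entered the test, 0 with the transcript length trend removed, and 0 to 1 when each library was left out. The gap between early and droplet genes of -3.40 was -1.56 without *Plin1* and -1.88 with *Plin2* alone, both added after seeing the data, and -3.77 to -3.21 when each library was left out. Counts of pathway genes called stayed within 1.5 times under every alternative run, with 12 in place of 17 higher in Fgfr3CE-E12.5 cells without Fgfr3CE-E12.5 library 3 as the lowest. Over all genes tested, 1653 were called higher in Fgfr3CE-E12.5 cells, and 997 without Fgfr3CE-E12.5 library 3. *Plin2* reversed to -0.16 with the transcript length trend removed; *Fabp4* reversed to -0.15 under that setting and to -0.15 without Fgfr3CE-E12.5 library 2, with 0.56 without library 3; none of these was called, and the cause was not tested. With library size alone as the scaling, the median of all genes moved from 0.01 to 0.19, and *Lpin1* (-0.96) and *Adipor2* (-0.97) fell under the fold change threshold. Over all alternatives, 121 of 131 values for single members kept their direction and side of the threshold. With 1 library of a group left out of 2, the other was assumed to vary like the remaining group. The exact test and DESeq2's test gave no value for the gap between sets, and *Plin1* could not be fitted without either Fgfr3CE-E12.5 library. The same held for *Fabp5*, *Gpd1*, *Metrnl* and *Apol6*, so pathway counts without an Fgfr3CE-E12.5 library leave these genes out. *Cdh13* could not be fitted without Dlx5CE-E12.5 library 2 or 3.

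The replicate numbers 2 and 3 are shared between the groups, but refer to different pools of mice. Deviations from group means correlated at 0.12 for number 2 and -0.05 for number 3, so the numbers were not taken as pairs. With the replicate block, 3 members were higher in Dlx5CE-E12.5 cells and 0 higher in Fgfr3CE-E12.5 cells, as *Cd36* came to 0.97, *Mgll* came to 0.97 and lost its call, *Lepr* had an adjusted p of 0.0514 (edgeR), and the gap between sets, as the mean of same-numbered differences, was -3.74. Depth did not limit the early genes, but *Plin1*, *Plin4* and *Cfd* rest on few counts.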
